A study of Homo sapiens with 8 samples.

Results

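The APOBEC3 cytidine deaminases were followed as 5 genes, APOBEC3B, APOBEC3C, APOBEC3F, APOBEC3G and APOBEC3H, found by symbol in the deposited tables, among 23885 genes in all. Where a symbol had several transcripts, the best counted was used. Of the 5 genes, 4 passed the filter on low counts and were tested among 15723 genes, and APOBEC3G did not pass. The genes lie in a row on the + strand of chromosome 22 (hg19), from APOBEC3B at chr22:39378404-39388784 to APOBEC3H at chr22:39493229-39500072.

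The RNA came from HCT-116 cells, a widely used line from a human colorectal carcinoma, in 4 groups of 2 libraries. Every group received a medium with an agent for 12 h, a wash, and a further medium for 4 h. The vehicle group received DMSO in both steps. The 5-FU group received 40 µM 5-fluorouracil, an antimetabolite that blocks thymidylate synthesis, and then DMSO. The 3-MB-PP1 group received DMSO and then 2.5 µM 3-MB-PP1, a bulky purine analogue made to inhibit kinases with an engineered ATP pocket. The group with both drugs received 40 µM 5-FU and then 2.5 µM 3-MB-PP1. The title of the series concerns p53 activation and Cdk7 inhibitors, but the labels name only the cell line and no kinase allele. The labels do not say whether libraries with different numbers were separate cultures, and the p-values then reflect only how far the libraries of a group differed, which may be technical.

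APOBEC3 enzymes bind zinc and turn cytosine into uracil in single-stranded DNA, which damages the genomes of retroviruses and the copies of retrotransposons. APOBEC3B is mainly nuclear, and its activity is known as a source of C-to-T mutations in tumours. The p53 pathway has been described as acting on the family in opposite directions: APOBEC3B as a gene repressed through p21 and the DREAM complex, and other members, APOBEC3C and APOBEC3H among them, as genes raised by p53.

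The coding sequences around the zinc-binding motif are shown because they hold the active site and are alike between the genes. The stretches below are from GENCODE v29 transcripts (GRCh38), are read 5′ to 3′ on the coding strand, and cover the last zinc motif of each protein. Capitals mark the codons of the zinc-binding histidine, the catalytic glutamate, the proline-cysteine pair and the closing cysteine.
APOBEC3B: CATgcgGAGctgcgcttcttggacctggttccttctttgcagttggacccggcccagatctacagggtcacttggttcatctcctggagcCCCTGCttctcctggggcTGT
APOBEC3C: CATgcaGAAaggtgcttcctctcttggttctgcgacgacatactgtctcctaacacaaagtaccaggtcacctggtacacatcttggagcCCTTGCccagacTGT
APOBEC3F: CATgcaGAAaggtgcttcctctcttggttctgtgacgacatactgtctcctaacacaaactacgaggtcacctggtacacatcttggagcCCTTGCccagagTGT
APOBEC3G: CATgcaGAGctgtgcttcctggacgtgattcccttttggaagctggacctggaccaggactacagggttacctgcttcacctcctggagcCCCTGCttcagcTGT
APOBEC3H: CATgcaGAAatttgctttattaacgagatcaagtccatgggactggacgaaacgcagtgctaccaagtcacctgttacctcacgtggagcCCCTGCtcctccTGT
In this stretch APOBEC3C and APOBEC3F were identical at 101 of 105 bases (96.2%), and APOBEC3B and APOBEC3G at 86 of 111 aligned positions (77.5%). The other pairs were identical at 59.5% to 68.1%. Over whole transcripts, 35.9% of the stretches of 50 bases in APOBEC3B also occurred in another APOBEC3 gene, most often APOBEC3A. The share was 24.0% for APOBEC3F, 19.1% for APOBEC3G, 1.16% for APOBEC3C and 0 of 974 stretches for APOBEC3H. For APOBEC3C it was taken over a GENCODE transcript of 2818 bases, while the counted transcript has 1108. For APOBEC3F these lengths were 2694 and 4686 bases, and for APOBEC3H 1023 and 1142. Part of the counted APOBEC3F transcript was therefore not compared. How reads that match several genes were counted is not given in the sources used here, so the values of APOBEC3B, APOBEC3F and APOBEC3G can hold reads of their relatives and are uncertain to that extent.

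The libraries held between 10580133 and 50501211 gene counts, with the deepest and the shallowest both in the 3-MB-PP1 group. CDKN1A and MDM2, known p53 targets, checked the treatments. CDKN1A, the gene of the cell cycle inhibitor p21, rose by 2.98 (log2 fold change, SE 0.050, edgeR adjusted p = 9.30e-24) with 5-FU alone and fell by 0.89 (SE 0.046, edgeR adjusted p = 2.38e-13) when 3-MB-PP1 followed 5-FU. MDM2, which encodes the ubiquitin ligase that degrades p53, had log2 changes of 2.29 and -1.25 in the same comparisons, and both passed. Of 10 epithelial markers, 7 to 9 were above 0 in a library, and their sum was 1539 to 2824 RPKM. KRT8, KRT18 and KRT19 had the highest medians (801, 760 and 375 RPKM). CDX1 was at 0 in every library, and VIL1 and LGALS4 held 15 and 20 counts over all libraries. Of 12 leukocyte markers, 4 to 9 were above 0 in a library, their sum was 4.94 to 7.11 RPKM, and CD3D was at 0 in every library. LYZ alone stood at 4.4 to 5.9 RPKM. The share of spike-in RNA ranged from 2.18% to 4.16% of the library.

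With 5-FU alone, APOBEC3C, APOBEC3F and APOBEC3H rose and APOBEC3B did not pass the test. The rises were 3.20-fold for APOBEC3C, 3.12-fold for APOBEC3H and 1.37-fold for APOBEC3F, so 3 of 4 tested members rose and 0 fell. Among all tested genes, 43.9% passed in either direction, 21.2% rose and 22.7% fell in this comparison (adjusted p under 0.05 in edgeR's quasi-likelihood test), and 2.73% rose more than 2-fold, as APOBEC3C and APOBEC3H did. In CPM (counts scaled to the library total times edgeR's TMM factor), the libraries of the groups did not overlap for 3 of the 4 members. Such libraries were seen for 69.5% of all tested genes. The median log2 change of the 4 members was 1.05, against 0.0026 for all tested genes. Scaled to the spike-ins instead, 1 of the 3 rises was called, that of APOBEC3C (log2 change 1.80, edgeR adjusted p = 0.0293, the highest of its 16 alternatives, the lowest being 6.77e-68), and 243 genes were called in place of 6903. In such bulk samples, fewer cells that express a gene and less RNA per cell cannot be told apart. The 4 comparisons between groups are not independent, since each group serves in more than 1 of them.

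**Figure D1:**
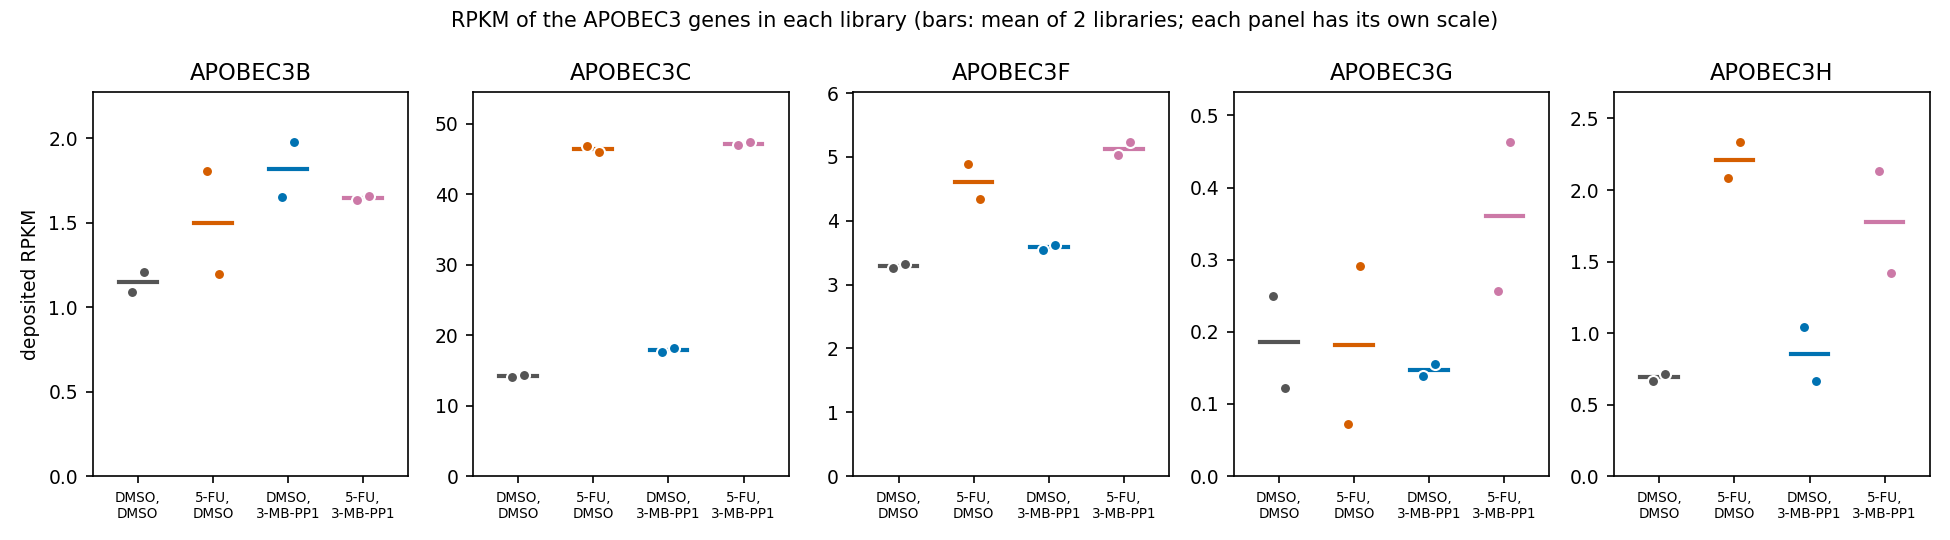
Deposited RPKM (vertical axis, own scale in each panel, starting at 0) of the 5 APOBEC3 genes in each of 8 libraries. Points are libraries and bars are means of 2. APOBEC3C and APOBEC3H sit higher in every library that received 5-FU, and APOBEC3G stays under 0.5 RPKM throughout.

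APOBEC3C encodes a small enzyme with 1 zinc motif that is found in both nucleus and cytoplasm, and it was the most abundant member per length. It lies at chr22:39410265-39414825 (hg19). In the vehicle libraries it stood at 14.0 and 14.4 RPKM (the deposited count scaled by transcript length and library total), in the 5-FU libraries at 46.8 and 45.9, in the 3-MB-PP1 libraries at 17.7 and 18.2, and after both drugs at 47.0 and 47.4. The 4 libraries with 5-FU were all more than 2-fold above the 4 without it, and no library of 1 set reached the other. The underlying counts ran from 204 in a vehicle library to 1002 in the deepest 3-MB-PP1 library. The means were 14.2 ± 0.25, 46.4 ± 0.59, 17.9 ± 0.34 and 47.2 ± 0.29 RPKM (SD, n = 2 each) in that order of groups.

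On the log2 scale APOBEC3C rose by 1.68 (SE 0.083, 95% interval 1.51 to 1.85, edgeR adjusted p = 6.47e-15) with 5-FU alone. It ranked at place 123 from the top of the 15723 changes. Between the groups that both ended in 3-MB-PP1, it rose with 5-FU by 1.42 (SE 0.075, 95% interval 1.26 to 1.57, edgeR adjusted p = 4.40e-14), at place 105. With 3-MB-PP1 alone the gene rose by 0.29 (SE 0.090, edgeR adjusted p = 0.0171), a 1.22-fold difference between libraries that did not overlap. That call did not hold in DESeq2 (adjusted p = 0.0952), under spike-in scaling, or when vehicle library 1, vehicle library 2 or 3-MB-PP1 library 1 was left out (log2 changes 0.27, 0.31 and 0.31, adjusted p from 0.0676 to 0.105). Its adjusted p ranged from 0.0023 to 1.00 over 16 alternatives.

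APOBEC3C had a log2 change of 0.03 with 3-MB-PP1 after 5-FU (SE 0.070, 95% interval -0.12 to 0.17, edgeR adjusted p = 0.817). In the same comparison CDKN1A and MDM2 had log2 changes of -0.89 and -1.25. Both were among the largest falls of the p53 targets listed, of which others did not pass or rose. The interaction, which asks whether the 3-MB-PP1 effect differs after 5-FU, was -0.26 for APOBEC3C (SE 0.114, edgeR adjusted p = 0.216), which did not pass; edgeR's unadjusted value was 0.0301. It was -0.67 for CDKN1A and -0.93 for MDM2, and both passed. Of the 15 p53 targets listed, 4 were lower in the interaction and 11 did not pass, where 2% of all genes were lower. Differences between APOBEC3C and these genes were not tested.

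**Figure D2:**
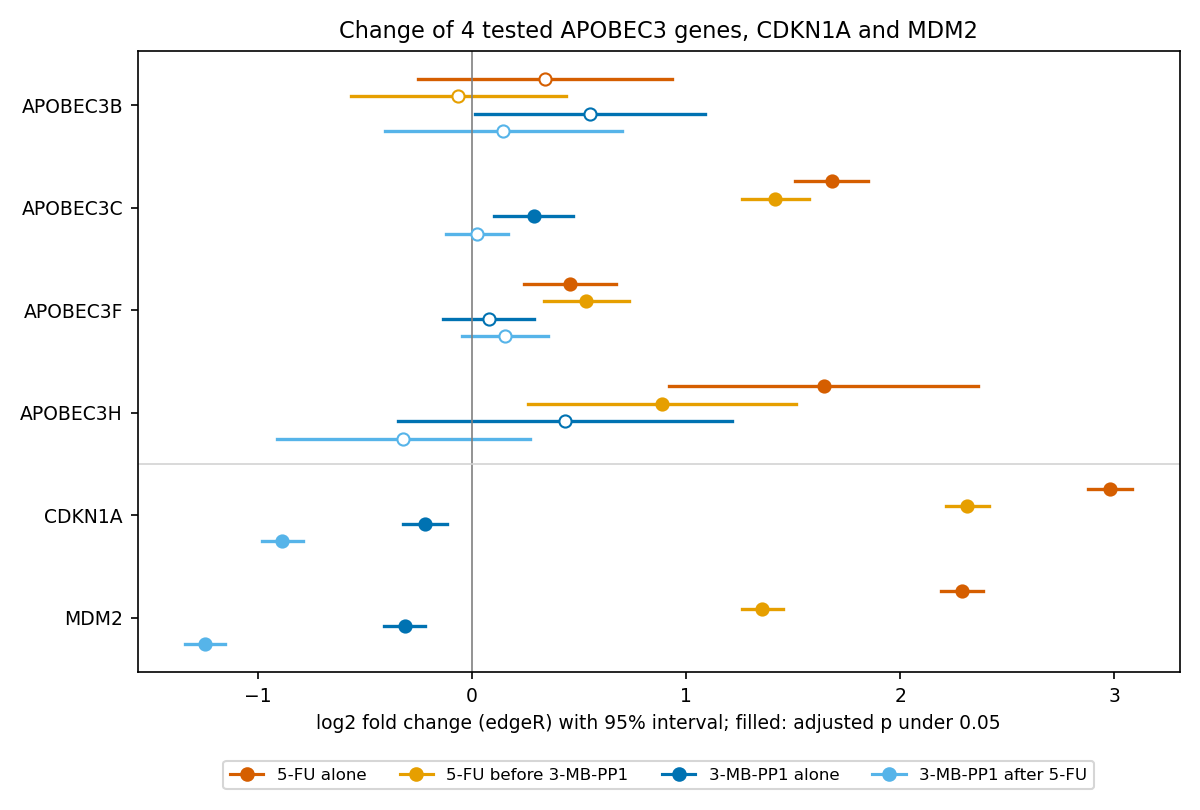
Log2 fold changes (horizontal axis, edgeR, bars are 95% intervals) of 4 APOBEC3 genes, CDKN1A and MDM2 in 4 comparisons, filled where the adjusted p is under 0.05. With 3-MB-PP1 after 5-FU, CDKN1A and MDM2 lie at -0.89 and -1.25 and APOBEC3C at 0.03. Both falls are among the largest of the p53 targets listed.

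APOBEC3H encodes an enzyme with 1 zinc motif whose protein stability differs between human haplotypes. It was listed by 4 overlapping transcripts, of which 1 was kept. The vehicle libraries held 10 and 11 counts, the 5-FU libraries 36 and 45, the 3-MB-PP1 libraries 61 and 8, and the libraries with both drugs 31 and 21. Per length this was 0.67 and 0.72 RPKM in vehicle, 2.08 and 2.33 with 5-FU, 1.04 and 0.67 with 3-MB-PP1, and 2.13 and 1.42 with both. The 5-FU libraries lay above both vehicle libraries, the 3-MB-PP1 libraries spanned the vehicle values, and the pair with both drugs lay above the 3-MB-PP1 pair and overlapped the 5-FU pair.

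APOBEC3H rose by 1.64 on the log2 scale with 5-FU alone (SE 0.350, 95% interval 0.92 to 2.36, edgeR adjusted p = 4.08e-04), at place 135. That rise rests on 10 to 45 counts per library. Between the groups that both ended in 3-MB-PP1, it rose with 5-FU by 0.89 (SE 0.304, edgeR adjusted p = 0.0220). This later call was lost in DESeq2 (log2 change 0.98, adjusted p = 0.137), after thinning to equal depth (1.03, adjusted p = 0.0511), under spike-in scaling (0.94), without 3-MB-PP1 library 2 (0.77) and without library 1 of both drugs (0.56). Without 3-MB-PP1 library 1 it held, with a log2 change of 1.42. The range of its adjusted p was 0.0126 to 1.00 over all alternatives. The changes with 3-MB-PP1 alone (0.43, SE 0.378), with 3-MB-PP1 after 5-FU (-0.32, SE 0.287) and the interaction (-0.75, SE 0.474) did not pass, with edgeR adjusted p of 0.429, 0.428 and 0.434.

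APOBEC3F, an enzyme with 2 zinc motifs that restricts retroviruses in the cytoplasm, lies at chr22:39436673-39451975 (hg19) and was the next most abundant member. It stood at 3.26 and 3.32 RPKM in vehicle, 4.89 and 4.34 with 5-FU, 3.55 and 3.62 with 3-MB-PP1, and 5.03 and 5.23 with both drugs. All 4 libraries with 5-FU lay above all 4 without it, and the highest level was with both drugs. The gene rose by 0.46 with 5-FU alone on the log2 scale (SE 0.104, 95% interval 0.24 to 0.67, edgeR adjusted p = 7.97e-04). It rose by 0.53 with 5-FU before 3-MB-PP1 (SE 0.097, edgeR adjusted p = 7.60e-05). The changes for 3-MB-PP1 alone (0.08, SE 0.103), 3-MB-PP1 after 5-FU (0.16, SE 0.098) and the interaction (0.08, SE 0.142) did not pass.

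APOBEC3B, the nuclear member with 2 zinc motifs, was low. Its libraries held 22 and 25 counts in vehicle, 42 and 31 with 5-FU, 130 and 32 with 3-MB-PP1, and 32 and 33 with both drugs, which is 1.09 and 1.21, 1.80 and 1.20, 1.65 and 1.98, and 1.64 and 1.66 RPKM. Its 5-FU libraries spanned the higher vehicle library, and the 3-MB-PP1 libraries lay above the vehicle libraries. With 5-FU alone the log2 change was 0.34 (SE 0.287, 95% interval -0.25 to 0.93, edgeR adjusted p = 0.364). It was 0.042 without 5-FU library 1, 0.61 without 5-FU library 2 and 0.15 after thinning to equal depth. The log2 change of APOBEC3B was 0.55 with 3-MB-PP1 alone (SE 0.261, edgeR adjusted p = 0.119, 0.0452 before adjustment), 0.15 with 3-MB-PP1 after 5-FU (SE 0.268) and -0.06 with 5-FU before 3-MB-PP1 (SE 0.243). Its interaction was -0.40 (SE 0.376), from -0.11 without 5-FU library 1 to -0.67 without 5-FU library 2, and it passed in 0 of 5 comparisons.

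A listed APOBEC3A transcript that spans from APOBEC3A to APOBEC3B overlaps the APOBEC3B rows on the same strand. It held 4 to 42 counts per library, so it cannot be told apart from APOBEC3B in the shared part.

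APOBEC3G, the cytoplasmic member with 2 zinc motifs best known as a target of the HIV protein Vif, was close to the limit of detection. The counts were 6 and 3 in vehicle, 2 and 9 with 5-FU, 13 and 3 with 3-MB-PP1, and 6 and 11 with both drugs. The largest value, 0.46 RPKM, belonged to a library with both drugs, and the vehicle and 5-FU values overlapped. The pooled level was 0.346 CPM (counts scaled to the library total times the TMM factor) in vehicle and 0.664 after both drugs. The exact 95% Poisson intervals, of counting error alone, were 0.158 to 0.657 and 0.387 to 1.06. These intervals overlap. In a fit without the filter, on 20932 genes, its log2 change was 1.32 for 5-FU before 3-MB-PP1 (SE 0.642, edgeR adjusted p = 0.115, 0.0403 before adjustment) and 1.33 for the interaction (SE 1.02, edgeR adjusted p = 0.649). No difference of APOBEC3G between groups was detectable at this depth.

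The order of the levels per length differed between groups. In vehicle the order was APOBEC3C, APOBEC3F, APOBEC3B, APOBEC3H and APOBEC3G, with no overlap between neighbours. With 5-FU alone APOBEC3H (2.08 and 2.33 RPKM) stood above APOBEC3B (1.80 and 1.20), the reverse of their order in vehicle. In 5-FU library 1 APOBEC3B held more counts (42 against 36), so the order there came from transcript length (1536 and 1142 bases). This reversal was not tested. With both drugs the APOBEC3B values lay between the APOBEC3H values, so that pair had no clear order. The summed RPKM of the 5 genes was 19.3 and 19.7 in vehicle, 55.6 and 54.1 with 5-FU, 24.1 and 24.6 with 3-MB-PP1, and 56.04 and 56.2 with both. APOBEC3C made up 72.7% and 72.8% of that sum in vehicle and 84.1% and 84.9% with 5-FU.

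**Figure D3:**
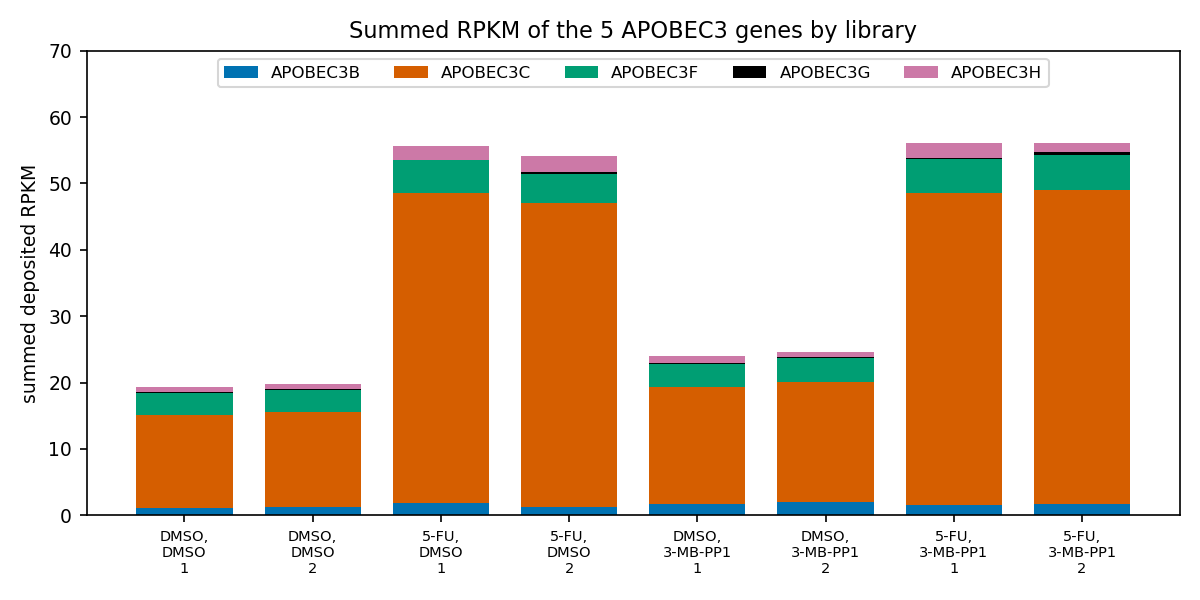
Stacked deposited RPKM (vertical axis, from 0) of the 5 APOBEC3 genes in each of 8 libraries, numbered by replicate. The 4 libraries with 5-FU reach 54.1 to 56.2 RPKM, the others 19.3 to 24.6, and APOBEC3C fills most of every bar.

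With 3-MB-PP1 alone 1 of 4 members rose and 0 fell, where 28.5% of all genes passed in edgeR, 11.5% rising and 16.9% falling. Libraries did not overlap for 3 of 4 members and for 62.5% of all genes. With 3-MB-PP1 after 5-FU 0 of 4 passed, where 32.9% of all genes did in edgeR (15.7% rose and 17.2% fell), and 0 of 4 had an unadjusted p under 0.05. Libraries did not overlap for 2 of 4 members and for 65.7% of all genes. DESeq2 also called 0 of the 4. With 5-FU before 3-MB-PP1, 3 of 4 rose and 0 fell, where 39.5% of all genes passed, 19.6% rising and 19.8% falling. Libraries did not overlap for 3 of 4 members and for 67.9% of all genes. In the interaction 0 of 4 passed, where 4.1% of all genes did in edgeR (2.11% higher and 2% lower). There 1 member, APOBEC3C, had an unadjusted p under 0.05, and DESeq2 called 0, with no adjusted p for APOBEC3B and APOBEC3H. The median log2 changes of the 4 members were 0.36, 0.09, 0.71 and -0.33 in these comparisons, against -0.012, 0.0031, 0.0022 and 0.014 for all tested genes.

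Of the relatives outside the 5 genes, APOBEC3D and APOBEC3A lie in the same row of genes. APOBEC3D (chr22:39417118-39429256, hg19) stood at 4.14 and 3.75 RPKM in vehicle and at 7.57 and 6.82 with both drugs. It rose by 0.37 with 5-FU alone (SE 0.137, edgeR adjusted p = 0.0328), by 0.47 with 3-MB-PP1 after 5-FU (SE 0.125, adjusted p = 0.0049 in edgeR) and by 0.63 with 5-FU before 3-MB-PP1. APOBEC3A had a log2 change of -0.04 with 5-FU alone, and it passed in 0 of the 4 comparisons between groups.

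**Figure D4:**
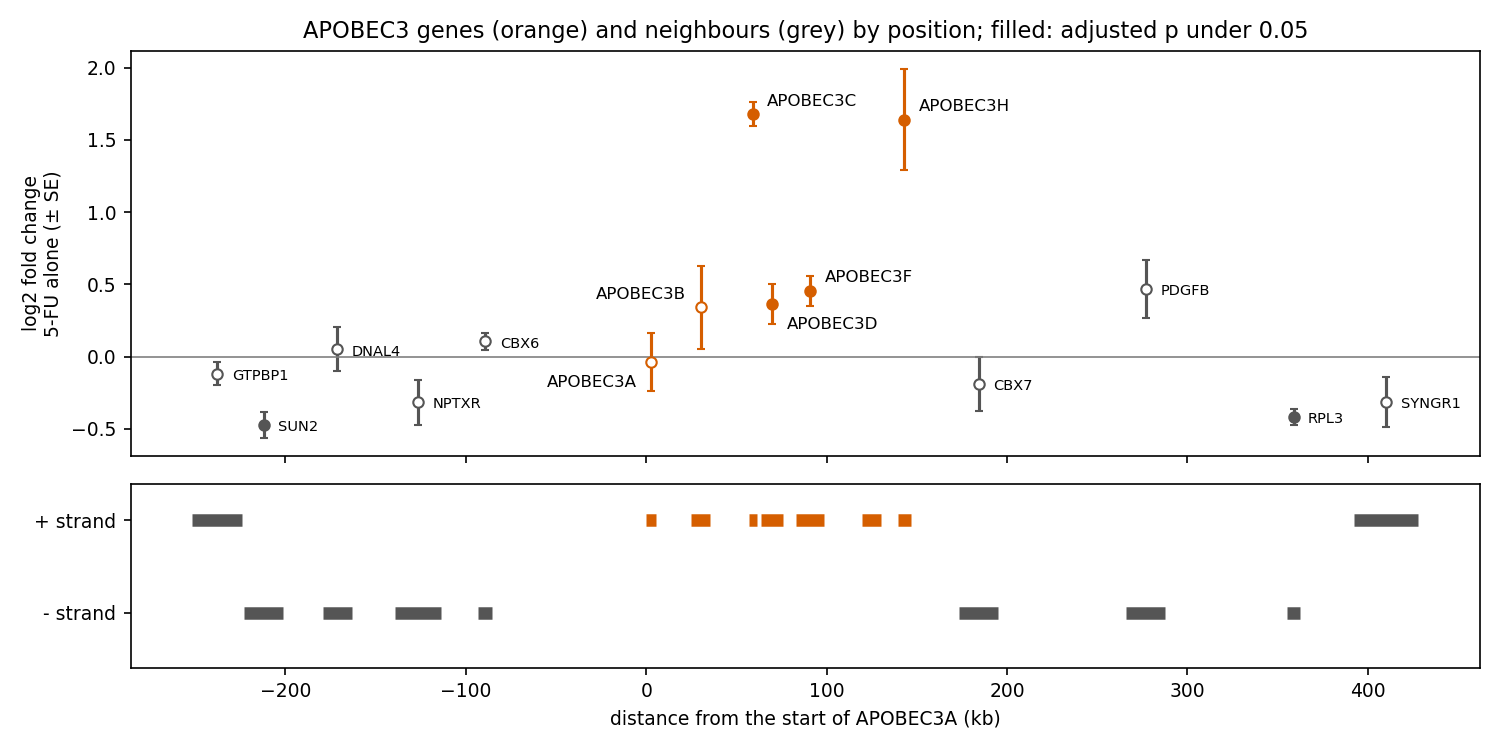
Log2 fold change with 5-FU alone (upper panel, ± SE, filled where the adjusted p is under 0.05) against distance from the start of APOBEC3A in kb for APOBEC3 genes (orange) and neighbours (grey), with the gene bodies by strand below. Small RNA genes are left out and APOBEC3G has no point. APOBEC3C and APOBEC3H stand at 1.68 and 1.64, and no neighbour rose.

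Of 13 tested genes within 250 kb on either side, 0 rose, 2 fell and 11 did not pass with 5-FU alone, with a median log2 change of -0.19, where 21.2% of all genes rose and 22.7% fell. Small RNA genes with wide errors make up 4 of the 13. SUN2, which encodes a protein of the inner nuclear membrane, fell by 0.47, and RPL3, a ribosomal protein gene, fell by 0.42. PDGFB, a growth factor gene, had a log2 change of 0.47 (SE 0.201, edgeR adjusted p = 0.0617). With 3-MB-PP1 alone 2 of the 13 rose and 4 fell, where 11.5% of all genes rose and 16.9% fell.

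The genes whose levels followed APOBEC3C most closely over the 8 libraries, by Euclidean distance of centred log2 CPM among 13658 genes, were CYFIP2 (0.179), FHL2 (0.264) and FDXR (0.276). Their log2 changes with 5-FU alone were 1.62, 1.56 and 1.59. The levels in all 8 libraries entered that choice, so a change like that of APOBEC3C in any comparison was built into it. FDXR, a mitochondrial reductase and p53 target, rose by 1.51 with 5-FU before 3-MB-PP1. Its log2 change was -0.02 with 3-MB-PP1 after 5-FU (SE 0.054, edgeR adjusted p = 0.824). Both values of FDXR describe the choice and are no separate result. Nearest to APOBEC3F were PI4KB (0.110), SEC61A1 (0.112) and C4orf10 (0.126). Nearest to APOBEC3H were LOC400027 (0.338), MSLN (0.502) and TBC1D2 (0.518), and to APOBEC3B PRAF2 (0.250), LOXL2 (0.275) and SNORD21 (0.293).

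Of the 15 p53 target genes listed, 15 rose with 5-FU alone, where 21.2% of all genes rose. Their median log2 change was 1.89, and CDKN1A (2.98) and GDF15 (2.76) were the largest. APOBEC3C and APOBEC3H lay below that median. With 3-MB-PP1 after 5-FU, where 15.7% of all genes rose and 17.2% fell, 2 of the 15 rose, 8 fell and 5 did not pass. Their median was -0.18. The largest falls were those of BBC3, which encodes the death protein PUMA (-1.37), MDM2 (-1.25) and CDKN1A (-0.89). SESN1 (0.53) and DDB2 (0.18) rose. Those that did not pass were FDXR (-0.02), ZMAT3 (0.07), BTG2 (0.09), XPC (0.11) and RRM2B (0.12).

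All 14 mitotic genes listed as repressed through DREAM fell with 5-FU alone, where 21.2% of all genes rose and 22.7% fell. Their median log2 change was -1.46. The largest falls were in PLK4, a kinase of centriole copying (-2.24), HMMR, a spindle protein gene (-1.94), and TTK, a spindle checkpoint kinase (-1.93). Of 13 genes for DREAM and MuvB subunits and partners, FOXM1 among them, 9 fell and 0 rose, from MYBL2 at -1.85 to RBL2 at -0.28. Those that did not pass were E2F4 (0.12), E2F5 (0.05), LIN37 (0.10) and TFDP2 (-0.04). With 3-MB-PP1 after 5-FU 4 of the 14 mitotic genes rose and 0 fell, led by HMMR (0.64). In that comparison 15.7% of all genes rose and 17.2% fell.

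Uracil in DNA, the product of APOBEC3 activity, is removed or bypassed by a further set of genes. Of 12 tested, 9 fell, 0 rose and 3 did not pass with 5-FU alone, where 22.7% of all genes fell, and their median log2 change was -0.40. Those that did not pass were SMUG1 (0.17), TDG (0.14) and POLB (0.18). UNG, the main uracil DNA glycosylase, fell by 1.92 (SE 0.069, edgeR adjusted p = 1.07e-17), and was followed by DUT, which degrades dUTP (-1.34), and XRCC1, a scaffold of base excision repair (-1.03). With 5-FU before 3-MB-PP1, 6 fell and 2 rose, where 19.8% of all genes fell and 19.6% rose, and UNG fell by 1.51. With 3-MB-PP1 after 5-FU, 3 rose, 2 fell and 7 did not pass, where 15.7% of all genes rose and 17.2% fell. There TDG, a thymine DNA glycosylase, fell by 0.54.

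Interferon response and other retroviral restriction genes, which often move with the APOBEC3 family in infected cells, were mixed with 5-FU alone. Of 16 tested, 6 rose, 3 fell and 7 did not pass, with a median of 0.08, where 21.2% of all genes rose and 22.7% fell. TRIM22, a restriction factor, rose by 2.55 (SE 0.578), IFITM2, which blocks virus entry, by 0.79 and IRF9, a subunit of the interferon-activated factor ISGF3, by 0.78. NF-kB signalling is known to raise APOBEC3B in other settings. Of 16 genes listed for its subunits, upstream kinases and regulators, 10 rose, 2 fell and 4 did not pass. The inhibitor gene NFKBIA (0.51) was among those that rose. These counts are for 5-FU alone, with the same shares of all genes, 21.2% rising and 22.7% falling. MAP3K14 (1.10), BIRC3 (1.03) and RELB (0.81) led the rises. Of the 16 NF-kB genes 2 rose and 9 fell with 3-MB-PP1 after 5-FU, where 15.7% of all genes rose and 17.2% fell. Of the leukocyte markers 2 were tested. ITGAM, with 79 counts over all libraries, rose by 1.68 with 5-FU alone (SE 0.621, edgeR adjusted p = 0.0309), and LYZ, with 1169 counts, had a log2 change of 0.03 (edgeR adjusted p = 0.892). Of 7 tested epithelial markers, 5 rose, 1 fell and 1 did not pass with 5-FU alone, where 21.2% of all genes rose and 22.7% fell. KRT19 rose by 1.31, EPCAM fell by 0.36, and CDH1 had a log2 change of 0.17. The part of either in the APOBEC3 values was not tested.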

How the data were processed

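Total RNA of HCT-116 cells was sequenced single-end after Ribo-Zero depletion, per the labels' protocols. The tool TopHat2 2.0.13 and the build hg19 are listed, per the submitters' processing notes, without a role. The counter, strand setting, read length and annotation release were not given in the sources used here. The deposited tables give a raw read count per RefSeq transcript and an RPKM that the authors derived from it and from transcript length. Of 41643 transcripts, 6260 had no symbol, and 5902 of these were matched by accession to RefSeq names. A single transcript per symbol entered, that with most counts on average.

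Counts of all genes were fitted with edgeR 4.0.16 in R 4.3.3 (filterByExpr, TMM, quasi-likelihood F test, 1 model of the 4 groups, 4 residual degrees of freedom) and adjusted by Benjamini-Hochberg over 15723 genes in each of 5 comparisons. Calls were made below an adjusted p of 0.05, and "rose" and "fell" are used of such genes. Alternatives included DESeq2 1.42.0, limma 3.58.1 on log2(RPKM + 0.1), spike-in scaling and leaving out each library.

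The members and gene lists were chosen with earlier results of these data known, so as sets they are described by counts and medians without a test. Single genes carry their results from the fit of all genes. Named were every member in every library, CDKN1A and MDM2, up to 3 called genes of a list per comparison by size of change, the 3 genes nearest to each tested member, and up to 3 neighbours within 250 kb. A selection of these is given, and some genes under this rule are not reported here. Spike-in sequences were left out of the tests.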

Additional observations from a re-analysis of the deposited data

How the results depend on the processing

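The 20 log2 changes (4 members, 5 comparisons) were recomputed under 16 alternatives. Of 320 refits, 300 kept direction and side of the threshold, 14 lost a call and 6 changed sign; 2 interaction refits in DESeq2, of APOBEC3B and APOBEC3H, had no adjusted p and were judged by direction. None of the 7 called changes changed sign in its 112 refits. The spike-in share differed within groups: 4.16% and 2.52% in vehicle, 2.70% and 3.25% with 5-FU. It was 3.83% and 2.18% with 3-MB-PP1, and 3.61% and 2.87% with both drugs. Under spike-in scaling the SE of APOBEC3C with 5-FU alone was 0.503, against 0.083 in the main fit. Spike-in scaling, with shares that varied 1.91-fold between libraries, moved the median log2 change of all genes from near 0 to 0.126, 0.189, -0.115, -0.189 and -0.306, in the order of the comparisons that follow. It called 243 genes (93 higher, 150 lower) in place of 6903 (3336, 3567) for 5-FU alone (1 member in place of 3), 112 (107, 5) in place of 4475 (1816, 2659) for 3-MB-PP1 alone (0 members in place of 1), 53 (41, 12) in place of 5173 (2471, 2702) for 3-MB-PP1 after 5-FU, 140 (20, 120) in place of 6206 (3087, 3119) for 5-FU before 3-MB-PP1 (0 members in place of 3) and 0 in place of 645 for the interaction. DESeq2 called 2577 genes with 3-MB-PP1 alone (0 members), 3271 with 3-MB-PP1 after 5-FU and 369 in the interaction, and limma called 139 there. The cause was not tested. Leaving out 1 library gave 5461 to 7028 genes with 5-FU alone, 2975 to 4564 (0 to 1 members) with 3-MB-PP1 alone, 3340 to 5370 with 3-MB-PP1 after 5-FU, 4524 to 6267 with 5-FU before 3-MB-PP1 and 248 to 919 in the interaction. The lowest were without vehicle library 1 (2975 and 248) and library 2 of both drugs (3340).

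The sign changes concerned changes that had not passed. Spike-in scaling gave -0.093 for APOBEC3C with 3-MB-PP1 after 5-FU and -0.26 for APOBEC3F in the interaction. Thinning gave 0.0074 for APOBEC3B with 5-FU before 3-MB-PP1, where leaving out a library gave -0.24 to 0.0036. Leaving out a library gave -0.10 to 0.55 for APOBEC3H with 3-MB-PP1 alone and -0.12 to 0.44 for APOBEC3B with 3-MB-PP1 after 5-FU. No shift shared by libraries of the same number was seen (correlation of deviations -0.058 to 0.046). This cannot show whether such libraries were paired. With a replicate block 6942, 4517, 5237, 6258 and 677 genes were called in the same order, and no call of a member changed. With 10 to 45 counts for APOBEC3H and 22 to 42 for APOBEC3B per vehicle or 5-FU library, small changes of these genes were not detectable.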

Other observations

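APOBEC3F was also listed by a short transcript of 804 bases that ends at chr22:39440428 (hg19), ahead of most of the gene. It held 17 and 15 counts in vehicle, 21 and 29 with 5-FU, 33 and 7 with 3-MB-PP1, and 17 and 19 with both drugs. Per length this was 1.61 and 1.39 RPKM in vehicle, 1.72 and 2.14 with 5-FU, 0.80 and 0.83 with 3-MB-PP1, and 1.66 and 1.82 with both drugs. The 3-MB-PP1 libraries were the lowest, below every vehicle library, whereas the full-length APOBEC3F transcript stood at 3.55 and 3.62 RPKM there, above its 3.26 and 3.32 in vehicle. The short transcript starts at the same base as the full-length one, so the same reads may have entered both values. The value in 3-MB-PP1 library 2 rests on 7 counts. The difference between the transcripts was noticed after the values were seen and was not tested.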
